A study of Mus musculus with 42 samples.

Results

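The genes described here are colony-stimulating factor 1 (Csf1), its receptor Csf1r and 8 markers of liver macrophages and of the monocytes they can arise from: Adgre1, Cd68, Lyz2, Mpeg1, Ccr2, Ly6c2, Cx3cr1 and Fcgr1. They are 10 of the 54446 genes in the count table, taken by symbol from a fixed list. The list was chosen with earlier results of these data known. Each of the 10 genes had enough counts to be tested. Their levels were measured by RNA sequencing in livers of 42 female APOE*3-Leiden mice, which all carry this transgene, a human apolipoprotein E variant that slows the clearance of lipoproteins from plasma. The promoter that drives the transgene is not given in the sources used here. The chow group (n = 10) was kept on maintenance chow, and the ages of these mice are not given. The WTD group (n = 16) was 8 to 14 weeks old at the start and received a Western-type diet with 15% cocoa butter, 40.5% sucrose and 1% cholesterol, first for a run-in of 3 weeks and then until week 32, with 0.05% sodium cholate added from week 22. The WTD+Atorvastatin group (n = 16) had the same ages, run-in, diet and cholate, with atorvastatin mixed into the diet at 3.0 mg/kg/day from week 0 and at 4.5 mg/kg/day from week 5. Each mouse gave 1 library at week 32.

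CSF1 is the growth factor on which most tissue macrophages depend. It binds CSF1R, a receptor tyrosine kinase on monocytes and macrophages, and so sustains their survival, proliferation and differentiation, and interleukin 34 is the other ligand of the receptor. The liver holds resident macrophages, the Kupffer cells, and in an injured liver monocytes enter through CCR2 and can turn into macrophages. Adgre1 (F4/80), Cd68, Lyz2, Mpeg1, Csf1r and Fcgr1 (CD64) are expressed by Kupffer cells as well as by recruited macrophages, so they do not mark infiltrating cells alone. Ccr2, Ly6c2 and Cx3cr1 are the members more typical of monocytes and their early progeny.

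The members lie on 8 chromosomes of the mouse genome (GRCm38, GENCODE vM21). Csf1 is at chromosome 3, positions 107741048 to 107760469 on the minus strand, and Csf1r at chromosome 18, positions 61100598 to 61132149 on the plus strand, where 15.1% of its exon bases overlap Hmgxb3 on the opposite strand. Cx3cr1 has an annotated span of 168264 bases, against 4505 exon bases, and the span contains Gorasp1, Csrnp1 and Xirp1 on the same strand. These 3 genes had 0 counts in all mice. Of 204 protein-coding genes inside introns of a gene on the same strand, 203 had 0 counts, against 112 of 380 inside a gene on the opposite strand. This is the pattern of counting over whole gene spans, in which the count of a member with long introns includes reads from them.

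The depth per library was 15661381 to 36224054 read pairs on genes. Its median was 20405093.5 in the chow group, 21095129 in the WTD group and 18180048.5 in the WTD+Atorvastatin group. Levels are given as CPM, counts scaled to the TMM-adjusted size of each library. The capture of weakly expressed genes varied: the share of genes at 1 to 2 CPM without a single count ranged from 0% to 59.7%. It exceeded 20% for 8 mice, 3 in the chow group, 4 in the WTD group and 1 in the WTD+Atorvastatin group. Chow replicate 2 had the highest share. The hepatocyte markers, which check the tissue, were abundant in every group, with a summed level of at least 49600 CPM. The chow-fed mice and the WTD-fed mice carry 2 different series of animal numbers in the labels, so diet and series cannot be told apart. In bulk liver, fewer cells of a type and less RNA per cell cannot be told apart either.

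PU.1, the product of Spi1, is a transcription factor that binds many promoters of macrophage genes. Its core motif GAGGAA was searched on both strands in the 250 bases before the start site. RefSeq promoters of build GRCm38.p6 were matched for 8 of the 10 members, all but Csf1r and Adgre1, with 9 start sites since Ly6c2 has 2. The core was present at Cd68, Ly6c2 and Fcgr1, 3 of 8 members and 4 of their 9 promoters, while 23.3% of all 32851 promoters hold it. The longer form GAGGAAGT, which contains the core, was present at Ly6c2 only, in 2 of the 9 promoters, and 2.44% of all promoters hold it. Both shares describe letters in a window and show no binding. The windows of the 3 genes with the core and of Mpeg1, an abundant member without it, are shown to place the motif, with the matched letters in capitals. The window of Cd68 is chr11:69666171-69666420 on the minus strand, that of Fcgr1 chr3:96293970-96294219 on the minus strand, that of the upstream start site of Ly6c2 chr15:75111972-75112221 on the minus strand, and that of Mpeg1 chr19:12460520-12460769 on the plus strand.
Cd68: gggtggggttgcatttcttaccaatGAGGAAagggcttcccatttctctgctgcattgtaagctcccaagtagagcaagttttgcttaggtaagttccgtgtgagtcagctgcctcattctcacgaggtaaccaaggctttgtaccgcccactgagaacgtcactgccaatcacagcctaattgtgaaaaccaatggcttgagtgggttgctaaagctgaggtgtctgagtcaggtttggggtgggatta
Fcgr1: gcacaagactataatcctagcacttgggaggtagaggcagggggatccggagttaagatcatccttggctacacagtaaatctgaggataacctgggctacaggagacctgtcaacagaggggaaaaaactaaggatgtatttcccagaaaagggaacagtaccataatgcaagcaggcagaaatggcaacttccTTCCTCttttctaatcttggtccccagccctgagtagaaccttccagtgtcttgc
Ly6c2: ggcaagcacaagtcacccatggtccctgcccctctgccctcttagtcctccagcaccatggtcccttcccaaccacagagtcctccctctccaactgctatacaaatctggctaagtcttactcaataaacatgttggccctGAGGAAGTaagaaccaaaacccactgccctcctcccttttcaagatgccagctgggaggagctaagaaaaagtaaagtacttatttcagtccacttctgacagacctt
Mpeg1: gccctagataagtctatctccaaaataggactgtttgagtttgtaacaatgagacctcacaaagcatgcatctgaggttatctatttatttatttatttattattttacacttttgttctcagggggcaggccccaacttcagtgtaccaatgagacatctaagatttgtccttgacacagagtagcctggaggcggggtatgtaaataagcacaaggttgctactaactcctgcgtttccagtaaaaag
The match at Cd68 begins 225 bases before the start site on the gene's strand, the match at Ly6c2 108 bases before the upstream start site on the same strand, and the match at Fcgr1 lies 55 bases before it on the opposite strand, where it reads TTCCTC. Before its second start site Ly6c2 has this match at 142 bases and another GAGGAAGT at 8 bases.

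The first question was how far the CSF1 axis and the macrophage markers moved on the Western-type diet. On WTD, 9 of the 10 members were higher than on chow, by 2.06-fold for Csf1 to 11-fold for Lyz2 in the ratio of mean CPM, and Ly6c2 did not pass the test. Of all 15574 tested genes, 17.5% were higher and 16.0% lower at the same threshold, an adjusted p under 0.01. The median log2 fold change of the members was 2.30, against 0.027 over all tested genes. For 8 members every WTD-fed mouse was above every chow-fed mouse, the exceptions being Ccr2 and Ly6c2. How many of all tested genes separate in this way was not counted.

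**Figure D1:**
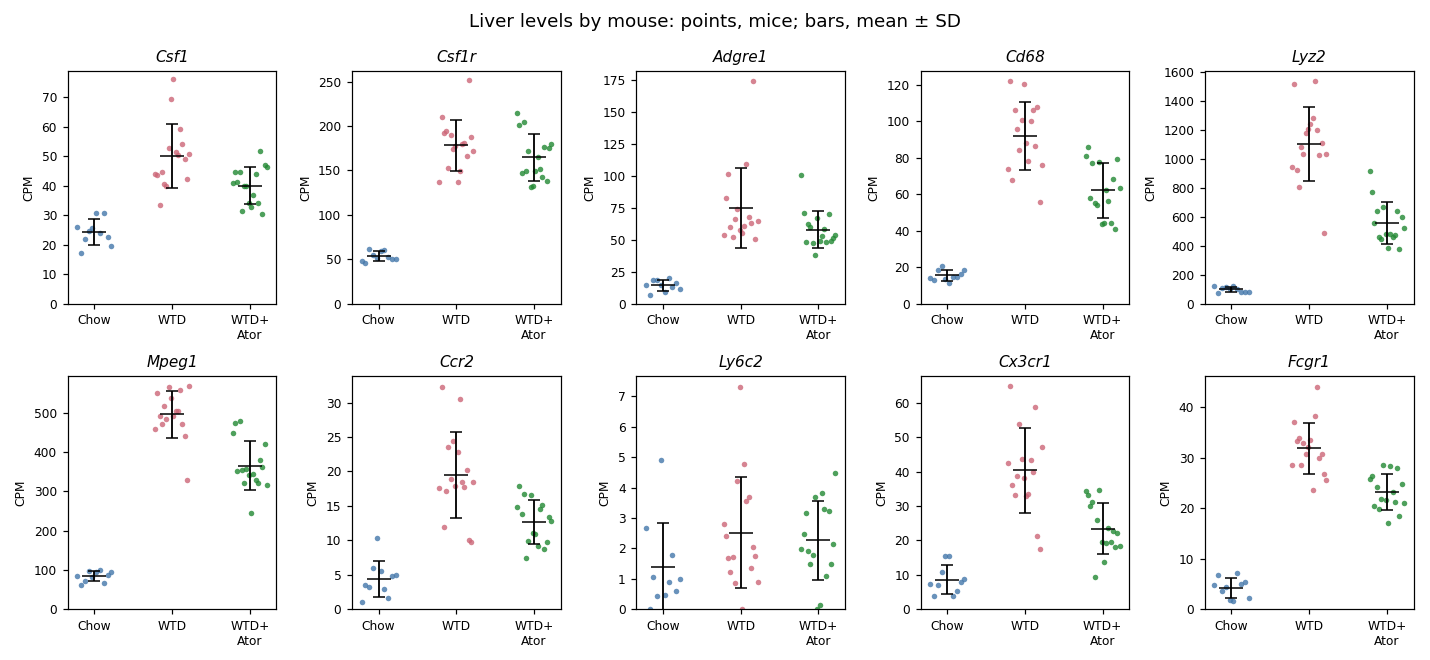
CPM (y axis, from 0) of each of the 10 members in every mouse on chow, WTD and WTD with atorvastatin (Ator), 1 point per mouse, with mean ± SD as bars. The chow-fed mice lie below all WTD-fed mice for 8 members, and 1 WTD-fed mouse stands out for Adgre1 at 174 CPM.

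The ligand Csf1 was present at 17.4 to 30.9 CPM in chow-fed mice (median 24.3), 33.4 to 76.0 CPM on WTD (median 49.8) and 30.5 to 51.8 CPM with atorvastatin (median 40.4). All 16 WTD-fed mice were above the highest chow-fed mouse, and 15 of 16 atorvastatin-treated mice were below the WTD median, but these 2 groups overlapped widely. Csf1 rose on WTD by a log2 fold change of 1.04 (SE 0.11, adjusted p = 2.19e-11), the smallest change among the 9 members that passed. With atorvastatin it was lower by 0.32 on the log2 scale than on WTD (SE 0.09, log2 fold change -0.32), with an adjusted p of 0.0124 that just missed the threshold. Csf1 passed in 6 of 42 fits with 1 mouse omitted and in 5 of 9 other settings, so its call depended on the processing. The 9 settings, here and below, include the same fit read at an adjusted p under 0.05, which Csf1 passes by definition. The mice with atorvastatin were still above chow (log2 fold change 0.72, SE 0.11, adjusted p = 4.53e-07).

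The receptor Csf1r had 45.9 to 61.9 CPM in chow-fed mice (median 52.3), 136.9 to 251.9 CPM on WTD (median 178.8) and 131.3 to 214.3 CPM with atorvastatin (median 158.7). It rose on WTD by a log2 fold change of 1.73 (SE 0.09, adjusted p = 5.77e-22). WTD-fed mice and atorvastatin-treated mice overlapped widely, with a log2 fold change of -0.12 between them (SE 0.07, adjusted p = 0.362), and no setting and no left-out mouse brought this difference past the threshold. The spread of Csf1r among mice of 1 group was the smallest of the members on chow, with a coefficient of variation of 10.2%.

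Among the other genes of the axis, Il34, the second ligand of CSF1R, rose on WTD (log2 fold change 1.38, SE 0.31, adjusted p = 0.000214) from a mean of 2.68 ± 1.45 CPM (SD, n = 10) to 7.02 ± 2.60 CPM (SD, n = 16). With atorvastatin its mean was 5.74 ± 1.48 CPM (SD, n = 16), a log2 fold change of -0.29 against WTD that did not pass (adjusted p = 0.556). All 5 tested genes of the list of other colony-stimulating factor ligands and receptors were higher on WTD, among them the receptor chains Csf2ra at 1.80 and Csf2rb at 1.83 on the log2 scale, and 1 of 5 was lower with atorvastatin, Csf2ra at -0.40 (adjusted p = 0.00748). The ligand genes Csf2 and Csf3 were too low to test, and Csf3 had 0 counts in every mouse.

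Signalling genes of myeloid cells were listed as downstream of CSF1R, although some also serve other receptors, and CSF1R signalling was not measured. All 12 of them were higher on WTD, with a median log2 fold change of 1.84, and 2 of 12 were lower with atorvastatin. These 2 were Tyrobp, the DAP12 adaptor, which rose on WTD (log2 fold change 2.76) and fell by 0.73 with atorvastatin (log2 fold change -0.73, adjusted p = 9.69e-05), and Fcer1g, the common gamma chain of Fc receptors (log2 fold change -0.55, adjusted p = 0.00426). Limma-voom called 6 of these 12 lower with atorvastatin and DESeq2 3. Of 8 tested myeloid transcription factors, 4 were higher on WTD, including Spi1 at 1.60 (SE 0.17, adjusted p = 4.86e-11). None of the 8 passed the edgeR test with atorvastatin, where 3 had an unadjusted p under 0.05, limma-voom called 3 and DESeq2 0. Irf8, another factor of this lineage, and Itgam had 0 counts in every mouse, and 100% and 99.9% of their spans lie within another annotated gene on the same strand, so they were not measured.

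Of the pan-macrophage markers, Lyz2, the lysozyme of macrophages and neutrophils, was the most abundant per length in every group, with 75.6 ± 13.8 CPM per kb of exon on chow, 835 ± 193 on WTD and 421 ± 110 with atorvastatin (SD, n = 10, 16 and 16). In CPM it ranged from 76.9 to 124.1 on chow (median 100.8), from 487.7 to 1532 on WTD (median 1094) and from 374.9 to 914 with atorvastatin (median 502.6). The lowest WTD-fed mouse, replicate 15, lay within the range of the atorvastatin-treated mice, and 8 of 16 treated mice were below it. Lyz2 rose on WTD by a log2 fold change of 3.47 (SE 0.15, adjusted p = 2.78e-23). With atorvastatin it fell by 0.99 against WTD (log2 fold change -0.99, SE 0.12, adjusted p = 6.90e-07), a mean ratio of 0.505 and the largest fall among the members. Its near paralog Lyz1 is 96.0% identical over 1262 aligned transcript bases and was at a mean of 2.12 ± 1.42 CPM (SD, n = 16) on WTD, far below Lyz2.

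Cd68, a lysosomal membrane protein of macrophages, had 11.7 to 21.0 CPM on chow (median 14.6), 55.7 to 122.3 CPM on WTD (median 92.0) and 41.1 to 86.3 CPM with atorvastatin (median 60.4). Every treated mouse was below the WTD median, and 6 of 16 were below the lowest WTD-fed mouse. The log2 fold change was 2.56 between WTD and chow (SE 0.13, adjusted p = 1.69e-21) and -0.56 between atorvastatin and WTD (SE 0.10, adjusted p = 0.000162). Mpeg1, the pore-forming perforin-2 of phagocytes, ranged from 61.5 to 100.6 CPM on chow (median 86.7), from 328.4 to 569.2 CPM on WTD (median 499.1) and from 246.2 to 480.2 CPM with atorvastatin (median 354.0). It too had all 16 treated mice below the WTD median. Mpeg1 rose on WTD (log2 fold change 2.56, SE 0.10, adjusted p = 3.38e-27) and fell by 0.44 with atorvastatin (log2 fold change -0.44, SE 0.08, adjusted p = 7.69e-05).

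Adgre1 encodes F4/80, the surface protein by which mouse macrophages are usually stained. Its CPM ranged from 6.83 to 20.0 on chow (median 14.6), from 50.9 to 173.5 on WTD (median 63.8) and from 37.8 to 100.2 with atorvastatin (median 53.4). WTD replicate 14 was the highest by far, and the next WTD-fed mouse had 108.9 CPM. Adgre1 rose on WTD (log2 fold change 2.37, SE 0.19, adjusted p = 4.98e-14). Between atorvastatin and WTD the log2 fold change was -0.36 (SE 0.15, adjusted p = 0.108), and it did not pass in any of the 42 fits that left out 1 mouse, where it ran from -0.43 to -0.23, or in the 9 other settings. The markers of Kupffer cells did not all peak in this mouse. Marco, at 546.3 CPM against a WTD median of 12.2, and Timd4, at 80.2 CPM against a WTD median of 7.29, were highest on WTD in replicate 14, as were Cd5l and Fcna. Clec4f and Folr2 were highest on WTD in replicate 15, Vsig4 in replicate 2 and Cd163 in replicate 12. In WTD replicate 14 Lyz2 was 1105 CPM, close to the WTD median. The part of Kupffer cells in the Adgre1 level was not tested.

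Fcgr1, the high-affinity receptor for IgG, had 1.54 to 7.07 CPM on chow (median 4.56), 23.6 to 44.1 CPM on WTD (median 31.5) and 17.0 to 28.6 CPM with atorvastatin (median 22.6). It rose on WTD by a log2 fold change of 2.92 (SE 0.17, adjusted p = 6.36e-20), second to Lyz2. All 16 treated mice were below the WTD median and 9 of 16 below the lowest WTD-fed mouse, replicate 10. This number does not rank the members, since for Lyz2, Cd68, Mpeg1, Ccr2, Cx3cr1 and Adgre1 the lowest WTD-fed mouse was replicate 15. Lyz2 was 487.7 CPM in that mouse and 804.7 CPM in the next lowest on WTD. The same number was not counted for all tested genes. The log2 fold change of -0.46 (SE 0.13) had an adjusted p of 0.0117, just outside the threshold, and Fcgr1 passed in 7 of 9 other settings and in 9 of 42 fits with 1 mouse left out. Of the related Fc receptors, Fcgr3 fell by 0.53 with atorvastatin (log2 fold change -0.53, adjusted p = 0.000392) after a rise of 2.16 on WTD, Fcgr4 rose by 2.95 on WTD and had a log2 fold change of -0.27 with atorvastatin (adjusted p = 0.489), and the inhibitory Fcgr2b, mostly of sinusoidal endothelium in liver, was lower on WTD (log2 fold change -0.36, adjusted p = 0.000434).

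The monocyte-type members were less abundant. Ccr2, the receptor for the chemokine CCL2, had 1.07 to 10.3 CPM on chow (median 4.16), 9.81 to 32.3 CPM on WTD (median 18.5) and 7.49 to 18.0 CPM with atorvastatin (median 13.1). Chow replicate 5, with the highest level on chow, reached into the WTD range, and 14 of 16 WTD-fed mice were above it. Ccr2 rose on WTD (log2 fold change 2.15, SE 0.23, adjusted p = 5.09e-11). All 16 treated mice were below the WTD median, and the log2 fold change of -0.62 (SE 0.19) had an adjusted p of 0.0181, which passed in 4 of 9 other settings and in 4 of 42 fits with 1 mouse left out.

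Cx3cr1, the fractalkine receptor, had 3.83 to 15.5 CPM on chow (median 7.56), 17.4 to 64.8 CPM on WTD (median 39.4) and 9.21 to 34.8 CPM with atorvastatin (median 22.4). It rose on WTD by a log2 fold change of 2.24 (SE 0.23, adjusted p = 3.00e-11) and fell by 0.78 with atorvastatin (log2 fold change -0.78, SE 0.18, adjusted p = 0.00214), the second largest fall among the members. All 16 treated mice were below the WTD median, and 14 of 16 were above the highest chow-fed mouse.

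Each receptor had a ligand gene that rose on WTD. Ccl2 went from a mean of 2.67 ± 2.05 CPM (SD, n = 10) to 14.5 ± 2.92 CPM (SD, n = 16), a log2 fold change of 2.44 (adjusted p = 5.04e-10), and Cx3cl1 from 1.25 ± 1.16 CPM to 13.1 ± 4.79 CPM, a log2 fold change of 3.37 (adjusted p = 1.49e-09). With atorvastatin the log2 fold changes were -0.62 for Ccl2 (adjusted p = 0.0565) and -0.89 for Cx3cl1 (adjusted p = 0.0394), neither past the threshold. Of the 5 tested ligands and sheddases, 4 were higher on WTD, and Ccl7, another ligand of CCR2, did not pass (log2 fold change 0.98, adjusted p = 0.212). None passed the edgeR test with atorvastatin, where 2 had an unadjusted p under 0.05, and limma-voom called 2 and DESeq2 0.

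Ly6c2, part of the Ly6C antigen of inflammatory monocytes, did not pass in either comparison. Its range was 0 to 4.90 CPM on chow (median 0.927), 0 to 7.30 CPM on WTD (median 1.88) and 0 to 4.49 CPM with atorvastatin (median 2.06), with 1 mouse at 0 counts in each group. The mice at 0 were chow replicate 2, WTD replicate 9 and WTD+Atorvastatin replicate 8, which are 3 of the 8 libraries that missed over 20% of weakly expressed genes. The log2 fold change was 0.86 between WTD and chow (SE 0.57, adjusted p = 0.230) and -0.15 between atorvastatin and WTD (SE 0.49, adjusted p = 0.910), and the sign of the second turned in 3 of the settings tried. The paralog Ly6c1 is 97.6% identical over 822 aligned transcript bases, with a longest identical stretch of 188 bases, so reads may be lost or shared between them.

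The second question was how far atorvastatin changed these genes on the same diet. Of the 10 members, 4 were lower with atorvastatin than on WTD, namely Lyz2, Cx3cr1, Cd68 and Mpeg1, against 2.26% of all tested genes that were lower and 4.84% that were higher. All 10 log2 fold changes were below 0, with a median of -0.45 against 0.002 over all tested genes. The 4 genes passed in all 42 fits with 1 mouse omitted and in each of the 9 other settings. Fcgr1, Csf1 and Ccr2 lay just outside the threshold, and the number of members past it was 7 with DESeq2 and 7 without WTD replicate 15. The share of all tested genes past the threshold was not counted for these fits. WTD replicate 15 had the lowest level of its group for Adgre1, Cd68, Lyz2, Mpeg1, Ccr2 and Cx3cr1, and the highest Clec4f, at 384.7 CPM. It also had the highest Alb, at 82590 CPM against a WTD median of 48530, with the highest Ttr, Serpina1a and Cyp2e1, and the lowest level of 9 of the 10 genes of lipid-associated macrophages, such as Trem2 at 17.8 CPM against a WTD median of 73.3. The part of cell composition in its levels was not tested. Compared with chow, 9 of the 10 members were higher with atorvastatin, with a median log2 fold change of 1.81, while 14.2% of all tested genes were higher and 10.7% lower.

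**Figure D2:**
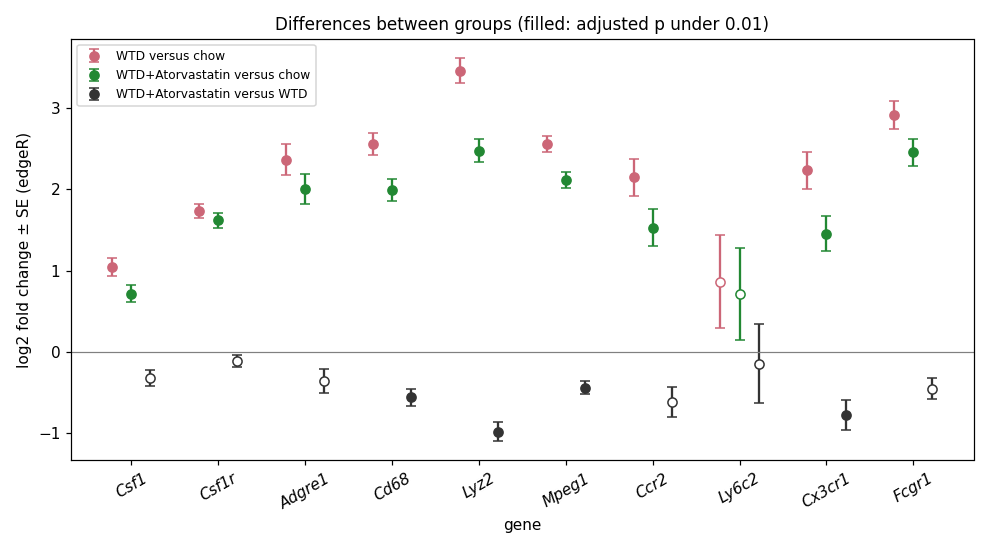
Log2 fold change with its standard error (y axis) for each member (x axis) in the 3 comparisons, from edgeR. Filled points have an adjusted p under 0.01. The 4 filled points below 0 are Cd68, Lyz2, Mpeg1 and Cx3cr1 in WTD+Atorvastatin versus WTD.

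A ratio of 2 genes in the same library needs no scaling between libraries, so each member was also set against Csf1r to test whether the members moved by unequal amounts. On WTD, 6 of 9 ratios to Csf1r differed from chow. Csf1r had a larger log2 fold change on WTD than 92.4% of all tested genes, so most genes would fall against it. Csf1 had a larger one than 84.7% of them. Ratios of non-members to Csf1r were not computed. The ligand fell relative to its receptor, with a mean log2 ratio of Csf1 to Csf1r of -1.15 ± 0.24 on chow (SD, n = 10) and -1.85 ± 0.43 on WTD (SD, n = 16), a difference of -0.69 (SE 0.13, p = 0.00024, adjusted p = 0.00054, two-sided permutation test). Lyz2 rose most relative to Csf1r, by 1.72 (SE 0.14), followed by Fcgr1 at 1.34 (SE 0.27), Mpeg1 at 0.85 (SE 0.11), Cd68 at 0.83 (SE 0.12) and Adgre1 at 0.63 (SE 0.16). The adjusted p of these 5 was at most 0.00024 by the permutation test. With the mean of the other members in place of Csf1r, Csf1 at -1.35, Lyz2 at 1.33, Fcgr1 at 0.90 and Mpeg1 at 0.36 passed, while Cd68 at 0.34 (adjusted p = 0.0288) and Adgre1 at 0.11 (adjusted p = 0.71) did not, by the same test. Adgre1 also missed the threshold without the 8 libraries that missed weakly expressed genes, at 0.46 (adjusted p = 0.0199 by the permutation test).

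With atorvastatin, 5 of 9 ratios to Csf1r were lower than on WTD. These were Lyz2 at -0.87 (SE 0.13), Cx3cr1 at -0.68 (SE 0.19), Cd68 at -0.46 (SE 0.10), Fcgr1 at -0.34 (SE 0.09) and Mpeg1 at -0.34 (SE 0.09), with an adjusted p of at most 0.0023 by the permutation test. The ratio of Csf1 to Csf1r did not differ past the threshold, at -0.20 (SE 0.12, adjusted p = 0.13 by the permutation test). The 5 ratios depend on the reference gene: with the mean of the other members in place of Csf1r, Lyz2 alone passed, at -0.57 (adjusted p = 0.000162 by the permutation test). Without the 8 libraries that missed weakly expressed genes, 3 ratios passed, those of Lyz2, Cd68 and Fcgr1, and the values of the other 2 were -0.64 for Cx3cr1 (adjusted p = 0.0166) and -0.27 for Mpeg1 (adjusted p = 0.0259, permutation test), with fewer mice. Against chow, 6 ratios differed in the atorvastatin group, 4 with either of these changes, without Cd68 and Adgre1, and Csf1 to Csf1r was the lower one, at -0.89 (SE 0.09, adjusted p = 3.4e-05 by the permutation test).

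**Figure D3:**
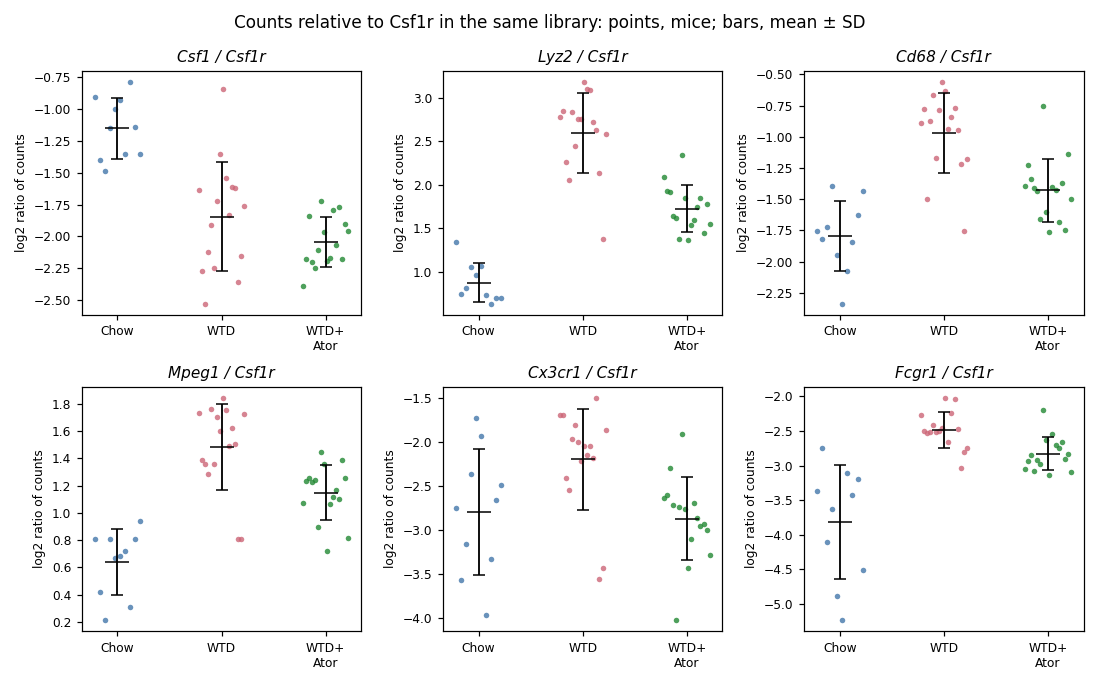
Log2 ratio of the counts of 6 members to those of Csf1r (y axis) in every mouse by group, 1 point per mouse, with mean ± SD as bars. Csf1 falls against Csf1r from -1.15 on chow to -1.85 on WTD, while Lyz2 rises from 0.88 to 2.60 and is at 1.73 with atorvastatin.

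Among mice of 1 group, the members varied together most in the atorvastatin group. The median Pearson correlation over the 45 pairs of members, on log2 CPM, was 0.174 in chow-fed, 0.277 in WTD-fed and 0.562 in atorvastatin-treated mice, and 44 of 45 were above 0 in the last group. Over all pairs and groups, 1 correlation passed an adjusted p under 0.01, that of Cd68 with Lyz2 in atorvastatin-treated mice (r = 0.875, p = 2e-05, adjusted p = 0.0027, and rho = 0.906, p = 1e-05, adjusted p = 0.0013, n = 16, permutation test, where 1e-05 is the smallest p possible), and r was 0.823 without the 2 mice farthest from the median of Cd68. On WTD the same pair had an r of 0.685 (p = 0.0037, adjusted p = 0.035, permutation test), which fell to 0.348 without the 2 farthest mice. Csf1 and Csf1r had an r of 0.415 on chow, -0.311 on WTD and 0.618 with atorvastatin, none past the threshold (lowest adjusted p = 0.059, permutation test). The difference of correlations between groups was not tested, and correlations of other gene pairs within a group were not computed. The libraries differed as well. The median share of weakly expressed genes without a count was 7.5% in the chow group, 8.5% in the WTD group and 0.3% in the atorvastatin group. The part of this difference in the correlations was not tested.

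**Figure D4:**
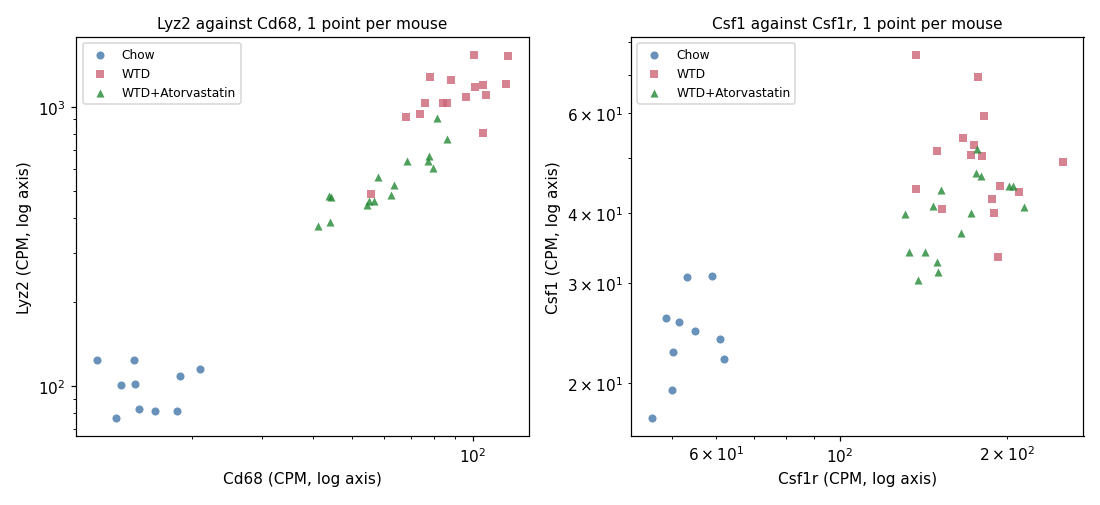
Left, CPM of Lyz2 (y axis) against Cd68 (x axis), and right, Csf1 (y axis) against Csf1r (x axis), on log axes, with 1 point per mouse and a marker shape and colour per group. Within the atorvastatin group Lyz2 follows Cd68 (r = 0.875), and there Csf1 and Csf1r have r = 0.618, which did not pass the threshold.

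Other lists of cell markers, also chosen with earlier results of these data known, place the members among the liver's cell types. All 17 tested other pan-macrophage genes were higher on WTD, with a median log2 fold change of 2.17, and 10 of 17 were lower with atorvastatin. Examples are Ctss, a lysosomal protease, at 2.99 and -0.70 (adjusted p = 2.66e-05 with atorvastatin) and the complement genes C1qa at -0.62 and C1qb at -0.55 with atorvastatin. All 10 genes of lipid-associated macrophages were higher on WTD, with a median of 3.30, and 6 of 10 were lower with atorvastatin, including Trem2, a lipid receptor of these macrophages, at 3.83 and -0.97 (adjusted p = 0.00015). Limma-voom called 9 lower and 1 higher with atorvastatin, and Fabp5, a fatty acid-binding protein, had a log2 fold change of 0.31 by edgeR (adjusted p = 0.359). By edgeR 4 were lower without the 8 libraries that missed weakly expressed genes.

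The markers of resident Kupffer cells did not move one way. On WTD 3 of 8 were higher and 2 of 8 lower, with Cd5l, a lipid-binding protein of macrophages, at 3.12 and Fcna, a ficolin, at -1.34. The other lower gene, Cd163, a scavenger receptor named here after its values were seen, had a mean of 10.3 ± 6.00 CPM on chow (SD, n = 10) and 0.212 ± 0.412 CPM on WTD (SD, n = 16), where its median was 0 (edgeR adjusted p = 2.74e-06). Clec4f, a lectin of Kupffer cells, had a log2 fold change of 0.24 on WTD (adjusted p = 0.278) and rose with atorvastatin by 0.62 (SE 0.16, adjusted p = 0.00470), while Cd5l fell by 0.39 with atorvastatin (log2 fold change -0.39). The summed level of the 8 markers ranged from 296 to 578 CPM on chow, from 924 to 2440 CPM on WTD and from 857 to 1540 CPM with atorvastatin. Most of this rise was Cd5l alone, with a mean of 113 ± 17.2 CPM on chow, 979 ± 195 CPM on WTD and 747 ± 116 CPM with atorvastatin (SD, n = 10, 16 and 16), and the highest sum was that of WTD replicate 14, with Cd5l at 1446 CPM and Marco at 546.3 CPM. Timd4 did not pass in either comparison (log2 fold changes 0.69 and -0.47).

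Of 10 monocyte genes, 8 were higher on WTD. None passed with atorvastatin by edgeR, limma-voom or DESeq2, and 0 had an unadjusted p under 0.05. Their summed level ranged from 39.9 to 72.9 CPM on chow, from 124 to 238 CPM on WTD and from 121 to 183 CPM with atorvastatin. Dendritic cell genes had 1 of 8 higher on WTD, and none with atorvastatin by edgeR, limma-voom or DESeq2 (1 with an unadjusted p under 0.05).

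Neutrophil genes had 4 of 5 tested higher on WTD, at a summed level of at most 25.1 CPM in any mouse, and 2 of 5 without the 8 weak libraries. Mpo, Elane, Ly6g, Retnlg and Camp were too low to test. With atorvastatin no neutrophil gene passed by edgeR, limma-voom or DESeq2 (1 with an unadjusted p under 0.05). Neutrophils also express Lyz2, and their part in its level was not tested. Of 10 genes of T and NK cells and 6 of B and plasma cells, none passed the edgeR test on WTD, where 2 and 3 had an unadjusted p under 0.05, limma-voom called 2 and 0, and DESeq2 1 and 0. With atorvastatin none of these passed by the 3 tools, and 1 and 0 had an unadjusted p under 0.05.

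Marker genes of cells other than leukocytes also differed between the diets. All 6 tested hepatocyte genes were lower on WTD, with Alb at -0.90 (adjusted p = 5.19e-10), and 3 of 6 were higher with atorvastatin, with Alb at 0.63 (adjusted p = 1.81e-05). Their summed level ranged from 106000 to 153000 CPM on chow, from 49600 to 104000 CPM on WTD and from 57100 to 125000 CPM with atorvastatin. Their part in the members' shares of the library was not tested. All 5 cholangiocyte genes were higher on WTD and 1 of 5, Spp1, which the list of lipid-associated macrophages also holds, was lower with atorvastatin, where 5 of 5 had an unadjusted p under 0.05, limma-voom called 5 lower and 0 passed without the 8 libraries that missed weakly expressed genes, by edgeR. Of the stellate cell genes, 3 of 6 were higher on WTD, and with atorvastatin 2 of 6 were lower and 1 of 6 higher. Genes of sinusoidal endothelium had 1 of 6 higher and 3 of 6 lower on WTD, and 2 of 6 higher with atorvastatin. For the latter, limma-voom called 4 higher and 1 lower, and edgeR called 1 without these 8 libraries. Of the 9 near paralogs of members, 5 were higher and 1 lower on WTD, and 1 lower with atorvastatin.

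**Figure D5:**
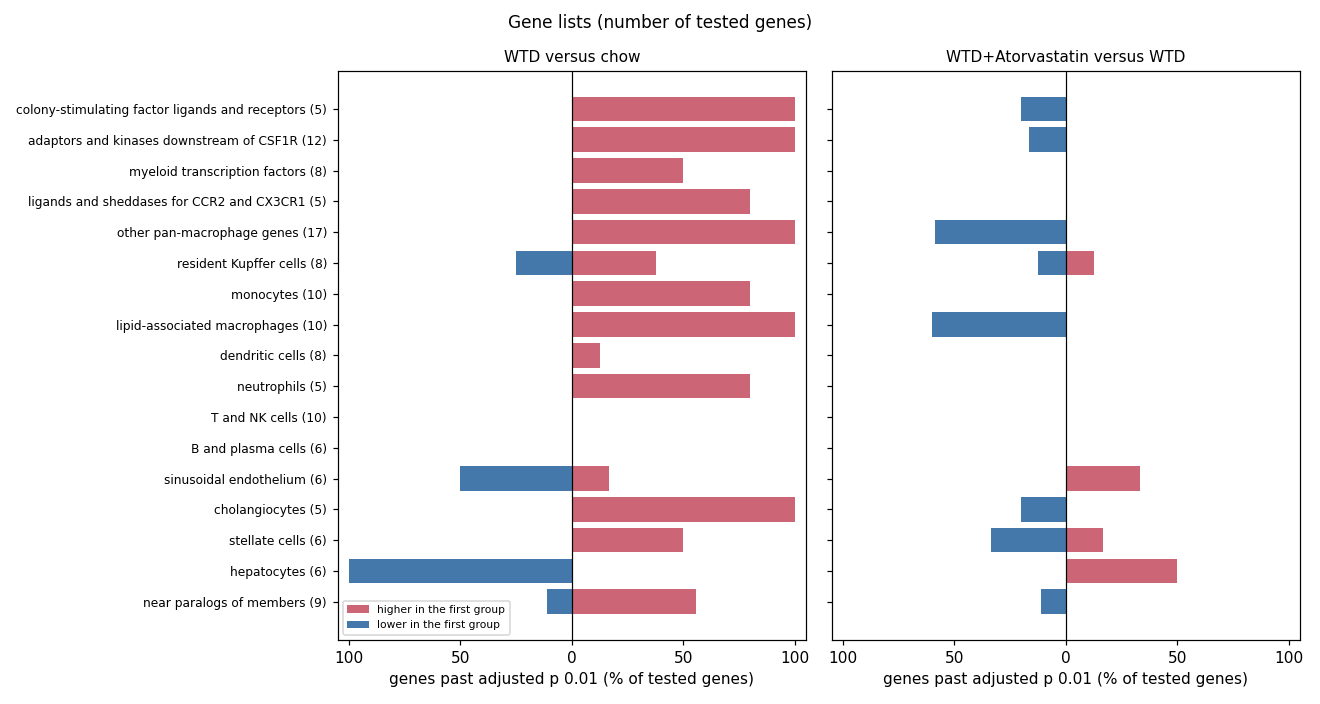
Share of tested genes of each list (y axis, number of tested genes in brackets) with an adjusted p under 0.01, as a percentage (x axis), to the right where higher and to the left where lower in the first group, for WTD versus chow and WTD+Atorvastatin versus WTD. All 17 pan-macrophage genes and all 10 genes of lipid-associated macrophages are higher on WTD, and 10 and 6 of them are lower with atorvastatin.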

How the data were processed

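RNA of 42 livers was sequenced as strand-specific libraries of polyadenylated RNA, 1 per mouse. Per the labels, reads were trimmed with Trimmomatic, aligned to GRCm38 with STAR 2.5 and counted with HTSeq 0.6.1p1, and the authors deposited the counts, whole numbers of read pairs per gene without normalization. HTSeq's summary lines were left out. Symbols came from GENCODE vM21, which holds 54409 of the 54446 identifiers.

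The filterByExpr function (at least 10 counts, 15 in total) left 15574 genes. After TMM scaling, edgeR 4.0.16 (R 4.3.3) was run with its quasi-likelihood method in 1 robust fit over the 3 groups. P values were adjusted by Benjamini and Hochberg over all tested genes, with a threshold of 0.01. The test was tried on simulated data. Ratios to Csf1r (0.5 counts added) and correlations used two-sided permutation tests with 100000 resamples, adjusted over 27 ratios and over all pairs and groups, with 1e-05 the smallest p they can give. Alternatives were DESeq2 1.42.0, limma-voom (limma 3.58.1) with quality weights per sample, scaling by RLE or upper quartile, no filter, only the 2 groups compared, a threshold of 0.05, leaving out the 8 libraries that missed over 20% of weakly expressed genes, the missed share as a covariate, and leaving out each mouse.

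The members and the gene lists were chosen with earlier results of these data known. Named genes are the members, a fixed set of related genes, and up to 3 genes per list with the smallest p. Not all of these are reported here. Replicate numbers follow accession order. P values measure the spread between mice. Promoter sequences are RefSeq's, and no protein sequence was used here.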

Additional observations from a re-analysis of the deposited data

Results flagged for a closer look

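In chow-fed mice, Ccr2 stood apart in 1 mouse: chow replicate 5 had 10.3 CPM, and its gap to the next mouse was 0.47 of the range of the 10 chow-fed mice. The same mouse had the highest Ly6c2 and Cx3cr1 on chow, at 4.90 and 15.5 CPM, and it lacked a count for 46.4% of weakly expressed genes. Its Cd68, at 13.3 CPM, and Lyz2, at 100.4 CPM, were near the chow medians of 14.6 and 100.8 CPM. Its Fcgr1 was low, at 1.72 CPM against a chow median of 4.56 CPM. The rule was applied to the 10 members in this group, and chance flags about 1 in 20 groups. The WTD-fed groups have more than 10 mice and were not tested in this way. Without chow replicate 5, Ccr2 passed the threshold between atorvastatin and WTD (edgeR adjusted p = 0.00869), against 0.0181 with it. Chow-fed mice enter this comparison only through the fit shared by the 3 groups. The change was not particular to this mouse. Ccr2 also passed without chow replicate 1 (adjusted p = 0.00953), WTD replicate 14 (0.00997) or WTD replicate 15 (0.00737), by edgeR.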

How the results depend on the processing

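In WTD versus chow and in WTD+Atorvastatin versus chow, 9 members passed under each of the 9 other settings and in all 42 fits with 1 mouse omitted. A threshold of 0.05 on the main fit can only keep or add members. In WTD+Atorvastatin versus WTD, 4 members passed, and leaving out 1 mouse gave 4 to 7, with 7 without WTD replicate 15. DESeq2, a fit of only the 2 groups compared and an adjusted p under 0.05 each gave 7, and the other settings 4 to 6. The log2 fold change of Ly6c2 in this comparison, which did not pass in any of them, turned positive with limma-voom (0.096), without the 8 libraries that missed weakly expressed genes (0.094) and without WTD replicate 8 (0.045), while leaving out 1 mouse gave -0.247 to 0.045. Of 9 ratios to Csf1r, 5 passed in this comparison, 1 with the mean of the other members as denominator and 3 without the 8 libraries, and leaving out 1 mouse gave 5 to 6. For WTD versus chow 6 ratios passed, with 6 to 7 when 1 mouse was left out and 4 to 6 under the other settings, and for WTD+Atorvastatin versus chow 6, with 5 to 6 and 4 to 6. The cause of these changes was not tested. The share of all tested genes past the threshold was counted for the main edgeR fit only. In each of 3 other settings 1 pair correlation passed the threshold. By Spearman rho it was again Cd68 with Lyz2 in atorvastatin-treated mice, and in the other settings the pair was not recorded. The 3 mice with 0 counts of Ly6c2 are all among the 8 libraries. No paired analysis was possible because the numbers in the labels name different mice, and nothing in the labels ties a mouse of 1 group to a mouse of another.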

Other observations

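Genes that varied most like a member over the 42 mice, after the mean of each group was subtracted from log2 CPM, are given as a description, with the libraries and their depth shared by both genes. Lyz2 varied most like Ctss (Pearson r = 0.837, n = 42), Mpeg1 like Lcp1 (r = 0.792), Cd68 like Nckap1l (r = 0.776) and Csf1r like Sdc3 (r = 0.799). Cx3cr1 and Ccr2 both had Olfml3 first (r = 0.844 and 0.736), and the next genes for Cx3cr1 were Fstl1 (r = 0.814) and the collagen gene Col1a1 (r = 0.796). For Fcgr1 it was P4ha1 (r = 0.803), for Csf1 Cotl1 (r = 0.661) and for Adgre1 Siglece (r = 0.649). For Ly6c2, Spdl1 had an r of 0.741 but a Spearman rho of only 0.262.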
